A study of Mus musculus with 2 samples.

Results

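The immunoglobulin constant genes Igha, Ighm, Ighd, Ighg1, Ighg2b, Ighg2c, Igkc, Iglc1, Iglc2 and Iglc3 were described in 2 single-cell RNA sequencing libraries of mouse intestinal lamina propria. These 10 genes were listed by name, out of 31053 genes in the count files. One library came from ApcMin mice (ApcMin/+;Lef1 +/+) and one from VApcMinL mice (ApcMin/+;Lef1 fl/fl; Villin-Cre), all on the C57BL/6 strain and 11 weeks old, so that both libraries carry the adenoma-causing ApcMin/+ allele. Villin-Cre acts in the intestinal epithelium, so the B and plasma cells described here are not the cells in which Lef1 was deleted. Cells had been sorted as negative for DAPI, Ter119, Epcam and CD45 to collect stromal cells, and the number of mice behind each library was not given in the sources used here. With 1 library per genotype, differences between the libraries have no replicate check and no test was possible.

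A barcode was kept when it had at least 2000 UMIs, each counting 1 captured mRNA molecule, and at most 20% of them from mitochondrial genes. This kept 7038 barcodes in the ApcMin library and 7399 in the VApcMinL library, with medians of 10331 and 8216 UMIs, out of library totals of 93203061 and 101609269 UMIs. Of these, 1782 (25.3%, 95% interval 24.3 to 26.4) and 1884 (25.5%, 24.5 to 26.5) had at least 1 UMI of Cd79a, the signalling chain of the B cell receptor, or of Mzb1, a chaperone of antibody-secreting cells, and are called B or plasma barcodes. Exactly 1 UMI of the pair was behind 420 and 649 of them, and 541 and 755 also met the marker rule of another cell type, most often fibroblasts (340 and 468). The name therefore states the rule and not a cell type. The libraries shared 21 kept barcodes, of which 0 were B or plasma barcodes in both. Intervals on shares are exact Clopper-Pearson 95% intervals and those on summed counts exact Poisson 95% intervals, and both cover counting error only.

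An antibody is built from heavy and light chains, and the constant gene of the heavy chain sets its isotype. A naive B cell makes IgM and IgD from 1 primary transcript by alternative splicing. After class switching, which joins the variable exon to a constant gene further downstream, the cell makes IgG, IgE or IgA instead. Gut plasma cells are known for secreting IgA, which is linked into dimers by the J chain and carried across the epithelium by the polymeric immunoglobulin receptor, Pigr. Each B cell uses either the kappa light chain, encoded by Igkc, or 1 of the lambda chains.

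The heavy chain genes lie on chromosome 12 of GRCm38 on the minus strand, so that transcription runs from Ighm (113418558-113422730) and Ighd (113406604-113416324) through Ighg3, Ighg1, Ighg2b, Ighg2c and Ighe to Igha (113254830-113260236). Igkc lies on chromosome 6 (70726435-70726966, plus strand), and Iglc1 (19061618-19062071), Iglc3 (19065230-19065681) and Iglc2 (19198396-19200351) lie on the minus strand of chromosome 16. The last 60 coding bases of the secreted chains are printed because they carry the ends by which chains pair and polymers form, and because they lie near the 3′ end from which this assay counts. They were read 5′ to 3′ from the GENCODE vM21 transcripts, with the last 2 codons before the stop in capitals.
Igha: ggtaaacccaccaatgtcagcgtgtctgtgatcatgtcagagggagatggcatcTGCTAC
Ighm: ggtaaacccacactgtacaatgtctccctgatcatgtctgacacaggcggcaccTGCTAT
Ighg1: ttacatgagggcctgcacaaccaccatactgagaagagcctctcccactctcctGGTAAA
Ighg2b: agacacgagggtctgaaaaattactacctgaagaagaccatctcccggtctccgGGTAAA
Igkc: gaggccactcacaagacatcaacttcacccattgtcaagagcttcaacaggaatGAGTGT
Iglc1: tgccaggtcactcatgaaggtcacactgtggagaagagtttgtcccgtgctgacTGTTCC
Iglc2: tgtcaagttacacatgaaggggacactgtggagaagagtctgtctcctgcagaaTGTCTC
Iglc3: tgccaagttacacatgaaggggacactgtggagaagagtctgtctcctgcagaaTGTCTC
The stretches lie in the last coding exon at chr12:113258771-113258830 for Igha, chr12:113420870-113420929 for Ighm, chr12:113328979-113329038 for Ighg1, chr12:113306392-113306451 for Ighg2b, chr6:70726695-70726754 for Igkc, chr16:19061755-19061814 for Iglc1, chr16:19198539-19198598 for Iglc2 and chr16:19065368-19065427 for Iglc3. Igha and Ighm both end with a cysteine codon before a tyrosine codon, and the cysteine of this tailpiece is the residue through which the J chain is bonded. Ighg1 and Ighg2b have glycine and lysine codons there and no such cysteine. Igkc ends with a cysteine codon and the lambda genes have it as the next to last codon, and this cysteine bonds the light to the heavy chain. Iglc2 and Iglc3 matched at 303 of 314 aligned coding bases (96.5%) and shared 43 of 409 windows of 50 bases, while Iglc1 matched them at 75.6% and 76.6% with 0 shared windows. How the authors' counting split reads between Iglc2 and Iglc3 is uncertain, so lambda is mainly given as a sum.

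The 10 genes together made up 4.13% of all UMIs of the kept barcodes in the ApcMin library and 4.20% in the VApcMinL library. These UMIs were held by few barcodes. B or plasma barcodes with at least 10% of their UMIs from the 10 genes, called Ig-rich, numbered 598 and 863, or 8.50% and 11.7% of the kept barcodes, and held 94.7% and 90.8% of all member UMIs. A further 12 and 21 lay between 5% and 10%. In the median Ig-rich barcode 68.7% and 68.8% of all UMIs came from the 10 genes. These limits were chosen after the distribution had been seen, and the high level of the members in Ig-rich barcodes follows from the choice.

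**Figure D1:**
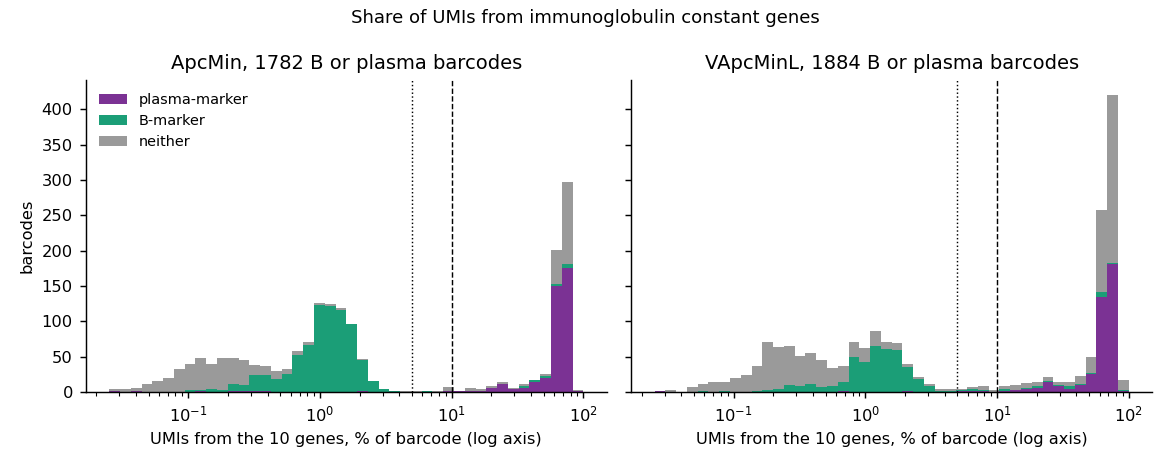
Share of a barcode's UMIs that came from the 10 immunoglobulin constant genes (x axis, percent) against the number of barcodes (y axis), by marker class and library, with the dotted line at 5% and the dashed line at 10%. Few barcodes lie between the lines (12 in ApcMin and 21 in VApcMinL), and the barcodes above them centre near 69%.

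The Ig-rich barcodes carried plasma cell genes. Jchain, which encodes the J chain, was detected in 100% of them in both libraries at 62668 and 58182 CPM, the UMIs of a gene divided by all UMIs of the set and scaled to 1000000, against 398 and 645 CPM in the B-marker barcodes described below. Xbp1, the transcription factor of the secretory programme, was detected in 97.0% and 91.2%. Detection of Jchain and Xbp1 was also common in fibroblast-marker barcodes of the ApcMin library, at 82.3% and 88.5%. In that library Tnfrsf17, a receptor of plasma cell survival signals, was detected in 55.4% of Ig-rich and 0.444% of fibroblast-marker barcodes. Sdc1, from the plasma cell secretion list, was detected there in 57.4% of Ig-rich and 11.7% of fibroblast-marker barcodes, but in 81.0% of epithelial barcodes. Irf4 of the same list went the other way. It was detected in 13.5% and 9.04% of Ig-rich barcodes of the 2 libraries, against 53.1% and 42.1% of the B-marker barcodes described below. Mzb1 was detected in 97.5% and 91.8% of the Ig-rich barcodes, which the choice of barcodes by Cd79a or Mzb1 partly fixes. The B cell gene Ms4a1 (CD20) was detected in 2.17% and 1.97%, and Ptprc, which encodes the CD45 that the sort selected against, in 17.6% and 19.7%. Of the Ig-rich barcodes, 392 and 397 met the plasma-marker rule, 188 and 441 met neither rule and 18 and 25 met the B-marker rule. These rules need UMIs of at least 3 genes of a list of 9 plasma cell or 10 B cell markers, and more than of the other list. The median depth of Ig-rich barcodes was 7124 and 4338 UMIs. A further 400 and 586 B or plasma barcodes (22.4% and 31.1%) met neither rule and had under 5% of UMIs from the 10 genes. Of them, 374 and 552 met the marker rule of another cell type, and the fibroblast gene Pdgfra was detected in 58.0% and 62.6%. Their median of 12 and 19 Igkc UMIs lay near the 10 and 16 of fibroblast-marker barcodes. Values over all B or plasma barcodes include them.

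IgA was the heavy chain of nearly all plasma-marker barcodes. The dominant heavy chain was called when the heavy genes had at least 10 UMIs and 1 gene at least 50% of them. Igha was called in 396 of 399 plasma-marker barcodes of the ApcMin library (99.2%, 97.8 to 99.8) and in 402 of 403 of the VApcMinL library (99.8%, 98.6 to 99.99). In the Ig-rich barcodes it was called in 598 of 598 and 859 of 863. The purity of the calls was high, with a median of 100% of heavy chain UMIs on the top gene in both libraries and lowest values of 82.9% and 92.1%.

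The Ig-rich barcodes without an Igha call all came from the VApcMinL library and used Ighg2b, Ighg3 or Ighm. One with 2070 UMIs had 393 of Ighg2b, 1 of Igha and 925 of Igkc. Another with 2667 UMIs had 445 of Ighg2b, 6 of Igha and 1203 of Igkc. Both thus had heavy and light chain counts on the scale of the IgA barcodes. A barcode of 2646 UMIs had 353 of Ighg3, a gene outside the 10, with 2 of Igha and 932 of Igkc. The remaining one, of 13047 UMIs, had 874 of Ighm and 7 of Igha, together with 1624 of Iglc3 and 147 of Igkc. In the ApcMin library 0 of 598 Ig-rich barcodes had another call than Igha, which allows a share of up to 0.502% (3 counts of the total, as for every limit at a count of 0 here).

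Within the Ig-rich barcodes, kappa IgA barcodes had a median of 1242 Igha UMIs in the ApcMin library (114 to 8227) and 924 in the VApcMinL library (52 to 7507). The median number of Igkc UMIs was 3233 and 1878 in the same barcodes. Light chain transcripts outnumbered heavy chain transcripts, with a median of 2.52 Igkc UMIs per Igha UMI (10th to 90th percentile 1.32 to 4.06) and 2.1 (0.947 to 3.51). A UMI count is per molecule, so no division by gene length was made. Igha and Igkc counts moved together across these barcodes, which share a library and differ in depth, with a Spearman coefficient of 0.719 over 579 barcodes and 0.592 over 847. Lambda IgA barcodes were few, 19 and 12, and their median ratio of light to heavy UMIs was 2.77 and 2.52.

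**Figure D2:**
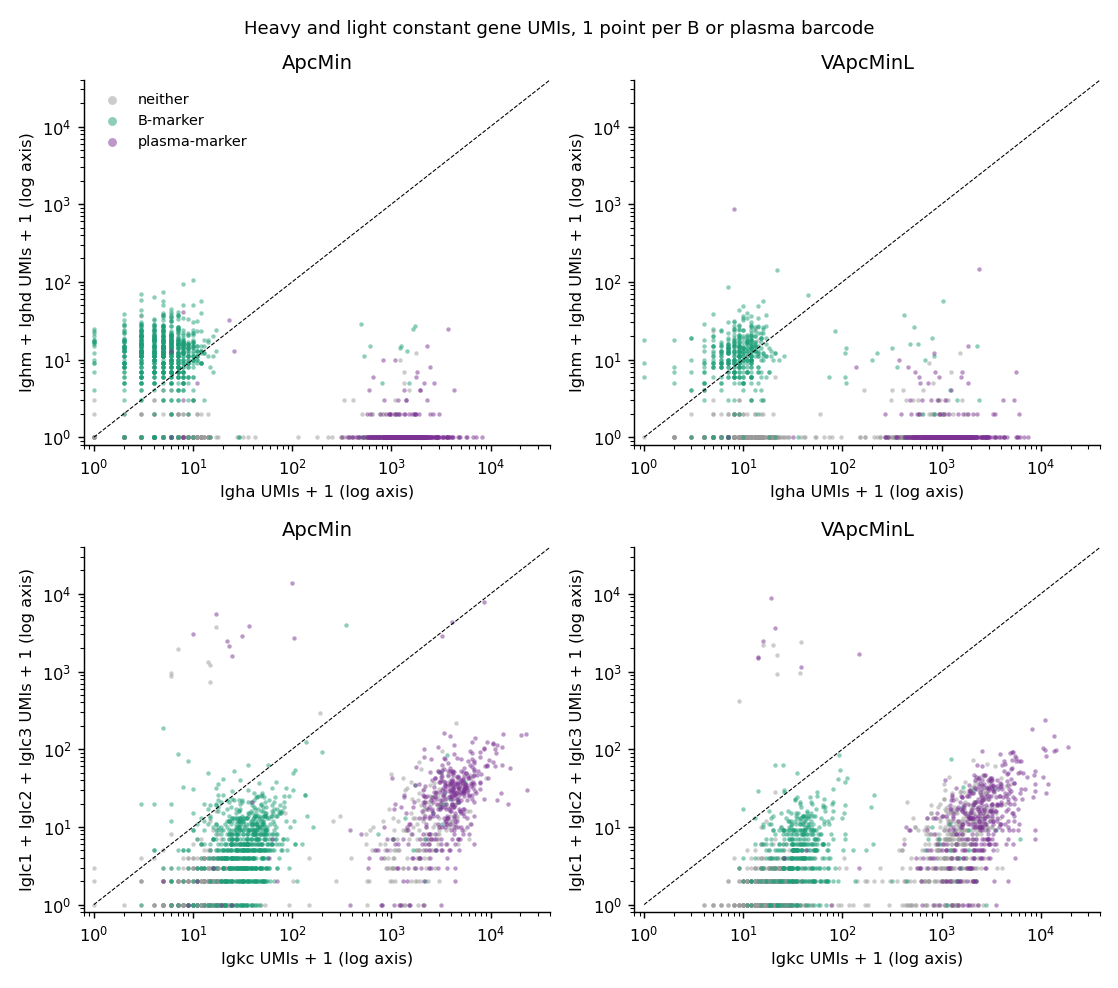
UMIs per B or plasma barcode on log axes (each count plus 1), with Igha against Ighm plus Ighd and Igkc against the sum of the Iglc genes, for each library. Barcodes with high Igha counts lie near 0 on the IgM and IgD axis, and most barcodes with high light chain counts lie near 1 of the axes of the kappa and lambda panel.

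One chain of each kind was the rule. The second heavy gene reached 10% of heavy UMIs in 1 of 598 and 0 of 863 Ig-rich barcodes, and the second light chain type reached 10% in 4 and 0. The heavy exception had 997 Igha and 205 Ighg2b UMIs among 18156, and also carried fibroblast markers. Of the light exceptions, one had 3205 Igkc and 2846 Iglc1 UMIs among 9123, and another 4132 and 4333 among 12073. The third, with 8502 and 7891 among 38842, also met the fibroblast rule, and the last, with 190 and 288 among 5762, was mostly haemoglobin transcripts. Whether these were doublets was not tested.

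The B-marker barcodes carried the unswitched isotypes. B-marker barcodes with under 5% of UMIs from the members, called Ig-poor, numbered 763 and 411, with median depths of 4882 and 4727 UMIs. Cd79a was detected in 99.1% and 99.03% and Ms4a1 in 89.1% and 87.6%, but both genes were used to choose these barcodes. Ptprc was detected in 95.2% and 92.7% although the sort selected against CD45 protein. How far that gate shaped the number of these barcodes was not tested. Ighm ranged from 0 to 102 UMIs per barcode with a median of 8 in the ApcMin library, and from 0 to 139 with a median of 7 in the VApcMinL library. Ighd had a median of 3 in both. Ighm and Ighd were both detected in 655 of 763 barcodes (85.8%) and 356 of 411 (86.6%), and Ighd made up 24.5% and 27.1% of their summed UMIs.

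These levels stood above the free RNA seen in cells that make no antibody. In fibroblast-marker barcodes the 99th percentile of Ighm was 1 UMI in both libraries, and 95.2% (93.4 to 96.6) and 93.9% (91.2 to 96.0) of the Ig-poor B-marker barcodes exceeded it. For Ighd, 71.2% and 87.8% exceeded the fibroblast 99th percentile of 1 and 0 UMIs. Igha differed from both. Its median was 4 UMIs in Ig-poor B-marker and 4 in fibroblast-marker barcodes of the ApcMin library, and 8 and 8 in the VApcMinL library. It exceeded the fibroblast 99th percentile (14.0 and 23.2 UMIs) in 7 of 763 (0.917%) and 5 of 411 (1.22%), as did 0.763% and 1.01% of the fibroblast-marker barcodes themselves. The highest of these 12 barcodes had 83 Igha UMIs, and 3 of them had 28, 28 and 35 Igha UMIs with 0 of Ighm and Ighd.

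The dominant calls of B-marker barcodes rest on few UMIs and differed between the libraries. Among B-marker barcodes with a heavy chain call, Ighm or Ighd was called in 389 of 485 in the ApcMin library (80.2%, 76.4 to 83.7). In the VApcMinL library it was 98 of 261 (37.5%, 31.7 to 43.7). Igha was called in 88 of all 782 and 158 of all 443 B-marker barcodes. Fibroblast-marker barcodes moved in the same way. Igha was called in 252 of all 3150 of them (8.0%) in the ApcMin library and in 1223 of all 3492 (35.0%) in the VApcMinL library. With Igha set aside, Ighm and Ighd together exceeded the IgG genes in 736 of 763 (96.5%, 94.9 to 97.7) and 400 of 411 (97.3%, 95.3 to 98.7) Ig-poor B-marker barcodes. With the mean level of free RNA subtracted from each barcode, the IgM or IgD share was 87.1% and 62.3%.

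**Figure D3:**
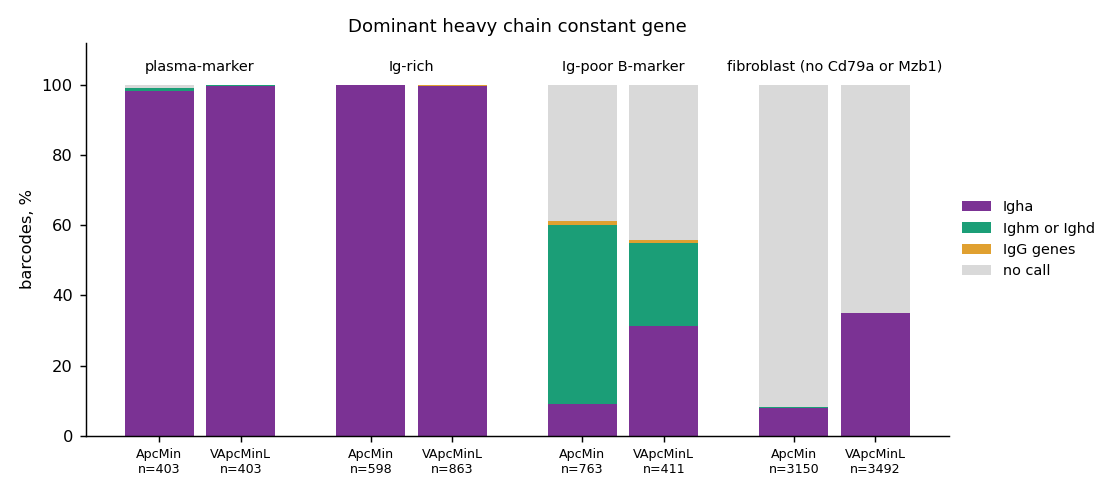
Percent of barcodes with a heavy chain call (y axis) by dominant gene, stacked, for plasma-marker, Ig-rich, Ig-poor B-marker and fibroblast-marker barcodes of each library. Plasma-marker and Ig-rich bars are almost wholly Igha, and the Igha part of the B-marker bar is larger in VApcMinL.

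IgG was rare. Ighg1, Ighg2b or Ighg2c dominated in 8 Ig-poor B-marker barcodes of the ApcMin library, 4 with Ighg1 at 21 to 44 UMIs and 4 with Ighg2b at 9 to 76 UMIs. In the VApcMinL library there were 3, with Ighg1 at 15 and 18 UMIs and Ighg2b at 57. Ighm was at 0 in 9 of these 11 barcodes and at 6 and 17 UMIs in the others. Ighg2c, an IgG2 gene of the C57BL/6 strain beside Ighg2b, had 4 and 2 UMIs in all B or plasma barcodes, where Ighg2b had 1423 and 1683. Ighe had 0 UMIs in either library. By the same 3 counts this allows up to 0.568 CPM in the ApcMin and 0.579 CPM in the VApcMinL Ig-rich barcodes.

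The IgG barcodes were also read for the cell cycle gene Mki67, a comparison chosen after the values had been seen. It was detected in 4 of the 8 ApcMin barcodes and in 22 of the other 755 Ig-poor B-marker barcodes. In the VApcMinL library it was detected in 3 of 3 and in 11 of 408. The IgG barcodes were deeper, with medians of 14301 against 4873 UMIs and 8421 against 4684, and the part of depth in this was not tested.

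Kappa was the light chain of nearly all barcodes. Lambda, the sum of the Iglc genes, exceeded Igkc in 49 of 1644 B or plasma barcodes with a light chain call in the ApcMin library (2.98%, 2.21 to 3.92) and in 22 of 1849 in the VApcMinL library (1.19%, 0.747 to 1.80). In the Ig-rich barcodes the share was 3.18% (19 of 598, 1.92 to 4.92) and 1.51% (13 of 863, 0.804 to 2.56), and in the Ig-poor B-marker barcodes 3.89% (29 of 745, 2.62 to 5.54) and 1.71% (7 of 410, 0.689 to 3.49). The intervals of the libraries did not overlap over all B or plasma barcodes and did overlap in both subsets. The totals of 1644 and 1849 include 282 and 552 barcodes under 5% that met neither marker rule, of which 281 and 550 were called kappa. With free RNA subtracted, the lambda share over all B or plasma barcodes was 4.99% and 2.86%. Lambda dominated in 0 of 1793 and 0 of 3118 fibroblast-marker barcodes with a light chain call.

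A lambda Ig-rich barcode used 1 lambda gene, which held at least 96.3% of its lambda UMIs. In the ApcMin library 17 used Iglc1, with 288 to 13645 UMIs, and the other two used Iglc3, with 2900 and 3045. In the VApcMinL library 11 used Iglc1, with 937 to 8856 UMIs, 1 used Iglc2 with 1629 and 1 used Iglc3 with 1624. Among Ig-poor B-marker barcodes the split was more even, with 13 of Iglc1, 7 of Iglc2 and 9 of Iglc3 in the ApcMin library and 3, 3 and 1 in the VApcMinL library.

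Low lambda counts were common in kappa barcodes. In Ig-rich kappa barcodes Iglc2 was detected in 89.3% and 81.5%, with a median of 9 and 4 UMIs and 3.93 and 3.81 UMIs per 1000 of Igkc. In Ig-poor B-marker kappa barcodes it was detected in 72.5% and 76.7% at 432 and 377 CPM. The fibroblast-marker barcodes held far less, with Iglc2 detected in 7.79% and 15.9% at 6.18 and 17.1 CPM, although they were deeper (median 13078 and 10270 UMIs against 4883 and 4737), so the level in B-marker barcodes stood above that of free RNA. Iglc3 showed the same order, at 331 and 255 CPM in Ig-poor B-marker kappa barcodes against 2.61 and 1.88 CPM in fibroblasts. How far reads shared between the lambda genes or with Igkc enter these counts was not tested.

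Free RNA of the members was found in every class. In empty droplets, taken as the 45001 barcodes at UMI ranks 45000 to 90000 (22 to 119 UMIs in ApcMin, 27 to 179 in VApcMinL), Igkc made up 87768 and 98551 CPM and Igha 27773 and 33225 CPM. Per fibroblast-marker barcode there were 11.1 and 17.6 Igkc UMIs on average, and Igkc was detected in 99.4% and 99.9% of them. The classes had like numbers of Igkc UMIs despite their differing depths, from 10.9 in erythroid to 17.1 in epithelial barcodes of the ApcMin library and from 17.1 in T cell or ILC (innate lymphoid cell) to 21.1 in erythroid barcodes of the VApcMinL library. Among VApcMinL fibroblast-marker barcodes Igkc was at 18.1 UMIs per barcode for depths of 2000 to 4000 UMIs and at 18.0 for 16000 to 32000. In the ApcMin library it was at 7.37 and 11.2.

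The ratios between members in cells without antibody followed those of the empty droplets for some genes and not for others. Iglc1 per Igkc was 0.0631 in empty droplets and 0.0663 in fibroblast-marker barcodes of the ApcMin library, and 0.0238 and 0.0256 in the VApcMinL library. Igha per Igkc was 0.316 and 0.337 in empty droplets and 0.337 and 0.329 in erythroid barcodes, but 0.446 and 0.512 in fibroblast-marker and 0.577 and 0.630 in epithelial barcodes. Ighm stood apart in leukocytes, at 1.54 and 0.787 UMIs per myeloid barcode and 0.658 and 0.311 per T cell or ILC barcode, against 0.0617 and 0.0235 per fibroblast-marker barcode. On the CPM scale, Igkc in fibroblast-marker barcodes was at 0.00987 and 0.0173 of its level in empty droplets.

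The libraries were compared by the CPM of each member summed over a set of barcodes, as log2 of VApcMinL over ApcMin, for genes with at least 200 UMIs in both libraries together. Over all B or plasma barcodes 9 members passed this minimum, and none was at least 2-fold higher in VApcMinL, while 8.19% of the 9944 genes compared were. Ighg1 (log2 -1.93), Iglc3 (-1.33) and Iglc1 (-1.12) were at least 2-fold lower, as were 1.48% of all genes. Igha differed by 0.15, Igkc by -0.19, Ighg2b by 0.19, Iglc2 by -0.10, Ighm by -0.68 and Ighd by -0.83. The median over the members was -0.68 and that over all genes 0.12. The B-marker share of these barcodes also differed, with 782 of 1782 in ApcMin and 443 of 1884 in VApcMinL, and within the Ig-poor B-marker barcodes the Ighm and Ighd ratios were nearer to 0, as given below.

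Single barcodes held large parts of several of these sums. The 3 members that were 2-fold lower were also so without the top barcode of each library. One barcode held 20.1% of the Iglc1 UMIs in ApcMin and one 27.4% in VApcMinL, and without the top barcode of each library the log2 ratio of Iglc1 was -1.25. For Iglc3 the top barcodes held 30.4% and 39.6%, and the ratio without them was -1.54. This ratio still includes another ApcMin barcode with 2900 of the 10001 Iglc3 UMIs, near the 3045 of the top barcode. No ratio without both is given, so the Iglc3 difference rests on few barcodes. For Ighg1 the top barcodes held 20.2% and 30.5% of 218 and 59 UMIs, and the ratio without them was -2.13. For Ighg2b the ratio was -0.03 without them, against 0.19.

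Within the plasma-marker barcodes Igha stood at 148943 CPM in ApcMin and 155425 CPM in VApcMinL (log2 0.06), and Igkc at 389531 and 334321 CPM (-0.22). Of 7 members compared, Ighm was at least 2-fold higher in VApcMinL (log2 2.58), against 5.97% of 2313 genes, and Iglc3 at least 2-fold lower (-1.26), against 2.51%. The Ighm call rested on 1 barcode, which held 874 of 1137 UMIs, and without the top barcode of each library the log2 ratio was 0.71. The Iglc3 call also rested on few barcodes. In ApcMin 2 barcodes held 3045 and 2900 of 7471 Iglc3 UMIs, and in VApcMinL 1 barcode held 1624 of 2631. The median over members was -0.26 and over all genes 0.27. One VApcMinL barcode of 396545 UMIs made up 10.9% of the UMIs of this set, and without barcodes over 100000 UMIs the ratio of Igha was 0.23 and that of Igkc -0.05.

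Within the Ig-poor B-marker barcodes none of 8 members compared was 2-fold higher or lower in VApcMinL, against 3.41% higher and 0.751% lower of 5190 genes. Ighm was at 1552 CPM (1518 to 1587) in ApcMin and 1171 CPM (1135 to 1209) in VApcMinL (log2 -0.41), Ighd at 503 and 435 CPM (-0.21) and Igkc at 5445 and 4931 CPM (-0.14). Igha was at 717 and 1142 CPM (0.67). In VApcMinL 2 barcodes over 100000 UMIs made up 14.7% of this set's UMIs. Without them the ratio of Ighm was -0.26, and those of Ighd (0.01) and Igkc (0.06) turned from below to above 0, while Igha was at 0.88. In fibroblast-marker barcodes, which have 0 UMIs of Cd79a and Mzb1, Igha was at 423 and 998 CPM (log2 1.24) and Iglc2 at 6.27 and 17.4 CPM (1.47), both past 2-fold higher as were 2.78% of 11659 genes. Depth differed between the libraries, with medians of 13078 and 10270 UMIs in those under 5% of UMIs from the members. Per barcode these had means of 4.95 and 8.99 Igha UMIs, less than 2-fold apart, and 0.0836 and 0.186 Iglc2 UMIs. Ighm was at 4.56 and 2.17 CPM there (-1.07), past 2-fold lower as were 0.755%, and the median over the 5 members compared was 0.98, against -0.0049 over all genes.

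**Figure D4:**
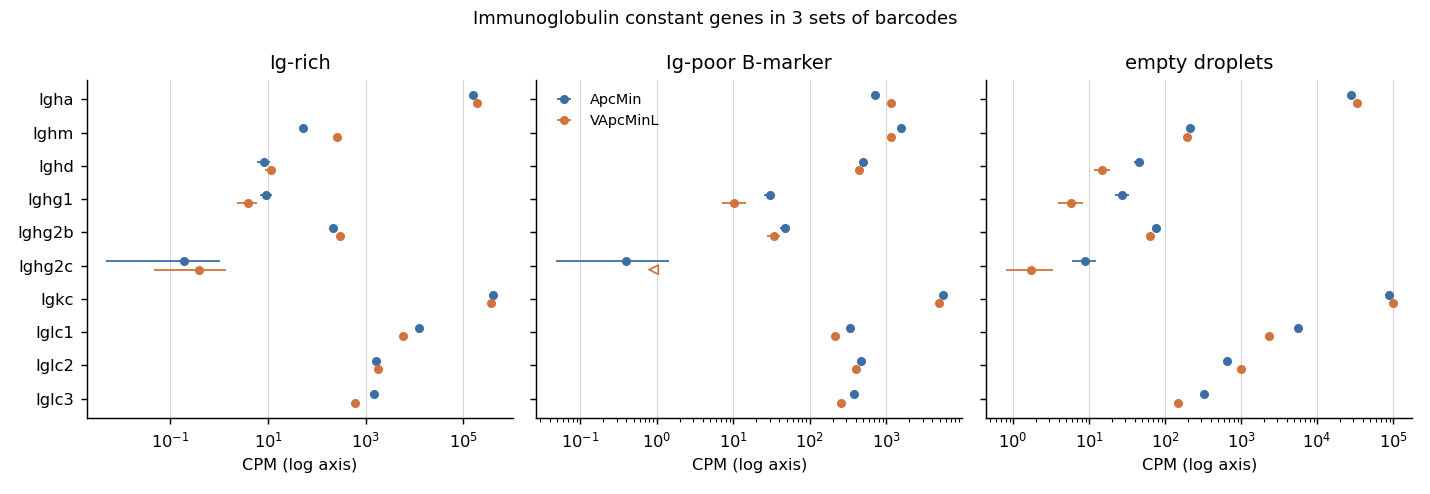
CPM of each member on a log axis with exact Poisson 95% intervals in Ig-rich, Ig-poor B-marker and empty-droplet barcodes of each library, with an open triangle for the upper limit at 0 UMIs. Igha and Igkc lead in the Ig-rich barcodes and the empty droplets, while Igkc leads in the Ig-poor B-marker barcodes. There Ighm comes next in ApcMin, and Ighm and Igha lie at like levels in VApcMinL.

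Other genes of the pathway were read by list with the same 2-fold rule. Of 11 B cell receptor genes, none was higher and 2, Ms4a1 (log2 -1.29) and Fcer2a, the low-affinity IgE receptor (-1.26), were lower in VApcMinL over all B or plasma barcodes, with a median of -0.89 against 0.12 over all genes, of which 8.19% were higher and 1.48% lower. In the Ig-poor B-marker barcodes all 11 lay within 2-fold, with a median of -0.26. The 12 plasma cell secretion genes all lay within 2-fold in B or plasma and in plasma-marker barcodes, with medians of -0.18 and -0.12. In the fibroblast-marker barcodes Jchain, like Igha there, was higher, at 168 and 439 CPM (log2 1.39). Of the survival and homing receptors, 10 were compared over B or plasma barcodes and all lay within 2-fold. In plasma-marker barcodes 1 of 9 was higher (Cd9, a tetraspanin, log2 1.02), as were 5.97% of all genes there. That set includes the VApcMinL barcode of 396545 UMIs. Over the Ig-rich barcodes Cd9 was at 36.5 CPM in ApcMin and 55.9 CPM in VApcMinL, less than 2-fold apart. Of the switching and germinal centre genes, all 4 compared lay within 2-fold over B or plasma barcodes, and 1 of 3 was higher in the Ig-poor B-marker barcodes (Top2a, a cell cycle gene, 1.06), as were 3.41% of all genes there.

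Pigr was higher in VApcMinL in all sets, by log2 2.90 in B or plasma, 5.14 in plasma-marker, 3.86 in Ig-poor B-marker and 2.31 in fibroblast-marker barcodes. It is an epithelial gene, at 1439 and 2457 CPM in the 42 and 282 epithelial barcodes, and it was at 108 and 457 CPM in the empty droplets. The part of free epithelial RNA in its level in the other classes was not tested. Of 11 survival and homing receptors, 4 were at least 2-fold higher in CPM in Ig-rich than in Ig-poor B-marker barcodes in both libraries, 3 at least 2-fold lower and 4 neither. Ccr10, the homing receptor of IgA plasma cells, was at 138 and 134 CPM against 0.199 and 0, and Tnfrsf17 (BCMA), a receptor of plasma cell survival signals, at 122 and 125 against 0.796 and 2.14. Cd28, a costimulatory receptor also made by plasma cells, was at 27.6 and 38.0 against 1.59 and 1.22, and Ccr9, a gut homing receptor, at 31.6 and 46.7 against 15.7 and 12.5. Lower in the Ig-rich barcodes were Cxcr4, a chemokine receptor, at 22.0 and 40.7 against 566 and 416, the BAFF receptor Tnfrsf13c at 20.4 and 16.6 against 186 and 154, and the integrin chain Itga4 at 46.6 and 57.5 against 164 and 154. These CPM are over all UMIs, most of which are immunoglobulin in the Ig-rich barcodes, so other genes read lower there. The counts of 4, 3 and 4 receptors hold for this scale only. They were not repeated without the immunoglobulin UMIs, and no share over all genes is set beside them.

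The genes most like Igha across all kept barcodes, by the mean over libraries of Pearson's r of log-normalized counts, were Jchain (0.914), Mzb1 (0.763), Sec11c (0.663), Edem2 (0.619) and Ccr10 (0.569). Those most like Igkc were Jchain (0.918), Mzb1 (0.778), Sec11c (0.653), Edem2 (0.581) and Cd79a (0.556). For Ighm they were Cd37 (0.820), Ms4a1 (0.803), Cd79b (0.765), Bank1 (0.756) and Fcmr (0.749). These are descriptions over 7038 and 7399 barcodes that share library, depth and free RNA. Igha and Igkc had r of 0.904 and 0.948 with each other and Ighm and Ighd 0.834 and 0.802, while Igha and Ighm had 0.036 and 0.042. For Ighg1, detected in few barcodes, no gene reached a mean r above 0.182.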

How the data were processed

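The samples were 2 lamina propria libraries, 1 per genotype, prepared with the 10x 3′ kit v3. The values deposited by the authors are raw UMI counts per gene and barcode for all 6794880 barcodes of each library, with no filter or normalization. The count files name Cell Ranger 3.1.0 and the submitters' processing notes name Cell Ranger 2.1.1 and Seurat 3.1.1, with reads aligned to mm10 (GRCm38). In all, 0 columns could not be matched to a sample.

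From the counts, barcodes were kept at 2000 UMIs or more and 20% or less mitochondrial UMIs. Chains were called at 10 UMIs and a 50% share, genes were compared at 200 UMIs, and counts were summed per library and divided by total UMIs (CPM). No doublet caller was run, and barcodes that also met another class were left out as an alternative. Counts were handled with scipy 1.17.1 and pandas 2.3.3 (numpy 2.4.6, Python 3.11.15) and drawn with matplotlib 3.10.9, and the calls, ratios and thinning were tested on simulated data. Gene positions and sequences came from GENCODE vM21, whose IDs equal those of the counts for all 10 members.

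The members, the lists (B cell receptor, plasma cell secretion, switching and germinal centre, survival and homing, Pigr) and the limits of 5% and 10% were chosen with earlier results of these data known. All 10 members are named, with Ighg3 and Ighe, and for Igha, Igkc, Ighm and Ighg1 the 5 genes of highest mean r, leaving out other immunoglobulin genes and genes under 200 UMIs. A planned list of genes that differ 4-fold between isotypes was not made, since plasma-marker barcodes of other isotypes than IgA numbered 3 and 1. One gene of the switching list is not reported here. Means, medians and percentiles of fibroblast-marker barcodes are over those with under 5% of UMIs from the members.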

Additional observations from a re-analysis of the deposited data

Results flagged for a closer look

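Some barcodes outside the set analysed carried a strong immunoglobulin signal. Among kept barcodes with 0 UMIs of Cd79a and Mzb1, 8 in ApcMin and 41 in VApcMinL had at least 10% of their UMIs from the 10 genes, with Igha as the dominant heavy chain and Jchain detected in all of them, and with median depths of 3547 and 3205 UMIs. Below the depth limit, at 1000 to 2000 UMIs, 86 of 555 barcodes in ApcMin (15.5%) and 301 of 1198 in VApcMinL (25.1%) had at least 10% of their UMIs from the 10 genes, with Igha as the top heavy gene in all 86 and 301.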

How the results depend on the processing

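No paired analysis was possible because no group holds more than 1 library. The ratio of the B or plasma shares, VApcMinL over ApcMin, was 1.01 and became 0.940 at a minimum of 5000 UMIs, 0.749 with at least 3 UMIs of Cd79a or Mzb1, 0.917 after thinning to 2000 UMIs and 0.890 without barcodes of another class. The IgA share of plasma-marker barcodes (99.2% and 99.8%) became 100% in ApcMin with at least 100 chain UMIs, with an 80% limit or in Ig-rich barcodes, and 97.4% and 100% after thinning. The IgM or IgD share (80.2% and 37.5%) became 9.52% and 5.71% with at least 100 chain UMIs (2 of 21 and 2 of 35), 63.0% and 11.5% with an 80% limit, and 87.1% and 62.3% with free RNA subtracted. The lambda share (2.98% and 1.19%) became 4.99% and 2.86% with free RNA subtracted, 1.63% in ApcMin with an 80% limit and 1.87% in VApcMinL after thinning. Igkc in fibroblasts over empty droplets (0.00987 and 0.0173) became 0.00938 and 0.0157 at 5000 UMIs, 0.0181 in VApcMinL at 1000 UMIs, 0.0111 and 0.0535 with droplets of 20 to 100 UMIs, 0.00977 and 0.0169 at a mitochondrial limit of 10% and 0.0175 in VApcMinL without one. After thinning, and without barcodes of another class, 1 member was 2-fold higher and 1 lower in VApcMinL, and 1 was lower with at least 3 UMIs of Cd79a or Mzb1, in place of 0 and 3, while 4 were lower at 5000 UMIs. The causes were not tested. Without the 200 UMI minimum, Ighg1 was at least 2-fold lower in 8 of 8 alternatives (on 68 UMIs after thinning), Iglc3 in 6 and Iglc1 in 4. Igha kept its sign in 7, Ighg2b in 6, and Igkc and Iglc2 in 5. Ighg2b was past 2-fold in 3 of the 8, with log2 ratios from -1.06 to 1.89. Leaving out barcodes over 100000 UMIs, and the Ig-rich and Ig-poor sets, were alternatives added after seeing the data. With 1 library per genotype, no difference between the libraries can be read as one between genotypes. At these totals Ighe could be read only as a limit.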
